A study of Mus musculus with 12 samples.

Results

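The subject here is a set of 42 genes for fatty acid synthesis and lipid storage, measured in lung and liver of mice given acrylamide and of untreated mice. The genes were a fixed list, and every array spot whose gene name or Entrez symbol equals a listed name was taken, which found all 42 among 26228 named genes. They are carried by 84 of the 61657 spots that are not controls, 15 by 1 spot and 27 by several. The arrays came in 4 groups of 3, all from female mice of strain B6C3F1/Nctr: lung with acrylamide at 0.7 mM (title numbers 28, 29 and 30), untreated lung (4, 5 and 6), liver with acrylamide at 0.7 mM (27, 29 and 30) and untreated liver (1, 3 and 4). The sources used here give neither the age of the mice nor how, or for how long, acrylamide was given. Acrylamide is a small reactive amide that forms in starchy food on heating.

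Liver makes fatty acids from sugar. Citrate leaves the mitochondrion, is split to acetyl-CoA, and the chain is built by acetyl-CoA carboxylase and fatty acid synthase, then elongated, desaturated and esterified to triglyceride, which is stored in droplets coated by perilipins. In liver the genes of this route are driven by SREBP1, which responds to insulin, and by ChREBP, which responds to sugar. In lung the alveolar type 2 cell makes fatty acids for the phospholipids of surfactant, and lipid droplets are a feature of fibroblasts and of any attached fat.

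A level below is the log2 intensity of a gene's brightest spot minus the 75th percentile of its array, so 0 is the intensity of that percentile. Levels are compared between arrays for 1 gene and never between genes. A gene was called where limma's Benjamini-Hochberg adjusted p, over all genes tested, was under 0.05. Each of the 42 genes passed the filter on dim spots in every comparison, and of all their values on 12 arrays, only that of Plin1 on liver acrylamide 30 did not exceed the negative control spots. The labels do not state whether each array of a group is a separate animal, so a p-value speaks only of the spread among these samples, part of which may be technical. As whole tissue was extracted, fewer cells of a type and less RNA per cell cannot be told apart. The titles of lung arrays open with the number 18 and those of liver arrays with 19. The labels do not say what this number stands for, and whatever it marks and tissue cannot be told apart. A further number in the titles, 1 or 2, is called the position number below, and its meaning is not stated either.

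The tissue entry in the labels reads liver for all 12 arrays, whereas the titles of 6 read lung, and markers went with the titles. In untreated lung against untreated liver, all 7 alveolar type 2 cell markers were higher and all 8 hepatocyte markers lower by limma's adjusted p. Liver acrylamide 27 and 29 carried some lung marker signal. Sftpc, the surfactant protein C gene, was at 2.63 and -0.65 on them and at -5.60 on liver acrylamide 30, against -7.45, -5.83 and -6.13 on the liver controls. The level of Sftpc on the lung arrays was 8.23 to 8.79. The markers were not uniform. Of the 7 alveolar type 2 cell markers, liver acrylamide 27 was the highest liver array for 4 and the lowest for 2. Liver acrylamide 29 was the highest for 1 and the lowest for 0. Of 3 club cell markers, liver acrylamide 27 was the highest liver array for 3 and liver acrylamide 29 for 0. Scd2, the gene of the set with the largest excess in lung, was at -1.06, -1.07 and -1.51 on liver acrylamide 27, 29 and 30, against -1.06, -0.62 and -0.62 on liver controls 1, 3 and 4. The part of lung RNA in liver acrylamide values was not tested. Results for differences that include liver acrylamide arrays are therefore also given without arrays 27 and 29, which leaves acrylamide 30 alone. That array had the highest background limit of the 12 (16.8, against 2.35 to 4.45 intensity units).

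The first question was where lung and liver differ. In untreated lung 35 of the 42 genes differed from untreated liver, 7 of them higher and 28 lower. Of all 23283 genes tested, 73.4% differed, 30.5% higher and 42.9% lower, so the share of 83.3% of the set lies not far above the background, and its larger part lies on the liver side (66.7% lower). The median difference over the set was -2.01 log2 units, against -0.34 over all genes tested. The tissues were also compared on acrylamide arrays, whose group means share no array with the untreated comparison. Both comparisons came from the same fit of all 12 arrays, which takes the spread of a gene from every array. Their standard errors and p-values are therefore not independent, and those of the untreated comparison also draw on the liver acrylamide arrays. On acrylamide arrays 36 of the 42 differed between lung and liver, 8 higher and 28 lower. Of all genes 74.9% differed there (30.6% higher and 44.3% lower). Without liver acrylamide 27 and 29, 36 were again called, with Plin1 lost and Plin3 gained. The scale matters for the background: with quantile scaling the median of all genes was -0.00 on control arrays, and the higher share of calls was 51.0% in place of 41.6%. On acrylamide arrays that share was 51.5% with quantile scaling in place of 40.8%. On the untreated arrays quantile scaling called 9 genes of the set higher and 26 lower, and on the acrylamide arrays 10 higher and 24 lower.

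**Figure D1:**
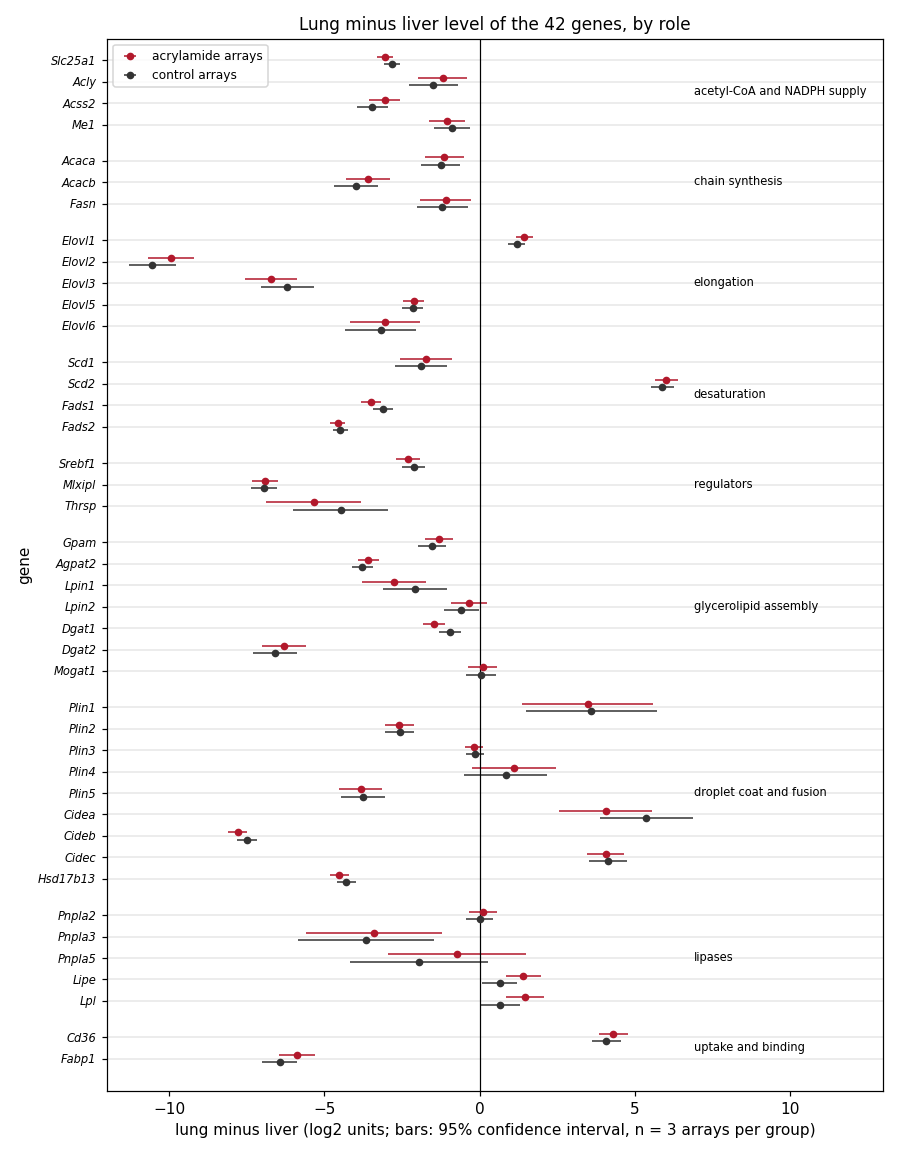
The difference between lung and liver in log2 units (horizontal axis) for each of the 42 genes, grouped by role, on acrylamide arrays (red) and control arrays (black), with 3 arrays in each group. Bars are 95% confidence intervals from limma, with the spread of a gene taken from all 12 arrays. Scd2, Cidea, Cidec, Cd36, Plin1 and Elovl1 lie to the right of 0, and most others to the left, with Elovl2 at -10.54 on control arrays.

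All 4 genes that supply acetyl-CoA and NADPH were lower in untreated lung. Slc25a1, the mitochondrial citrate carrier, differed by -2.81 ± 0.12 log2 units (SE from the fit of all 12 arrays, n = 3 in each group compared). Acss2, which makes acetyl-CoA from acetate in the cytosol, differed by -3.45 ± 0.22. Acly, the lyase that splits citrate, differed by -1.49 ± 0.35. Me1, the malic enzyme that yields NADPH, differed by -0.88 ± 0.26. It was not called under quantile scaling (-0.25) or median scaling (-0.68, limma adjusted p = 0.0507).

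The 3 genes of chain synthesis were also lower in lung, and the gap was modest for those that build the chain in the cytosol. Fasn, the fatty acid synthase, stood at 5.90, 5.68 and 5.98 on lung acrylamide arrays and 5.55, 6.19 and 6.14 on lung controls. On liver acrylamide arrays Fasn stood at 6.77, 6.75 and 7.32, and on liver controls at 7.02, 8.06 and 6.41. Every liver array lay above every lung array, and untreated lung was 2.3-fold lower (limma adjusted p = 0.0135). That call was lost under quantile scaling (a difference of -0.46, limma adjusted p = 0.207) and without lung control 4 (-0.99, limma adjusted p = 0.0534). Acaca, the acetyl-CoA carboxylase that makes malonyl-CoA for synthesis, stood at 3.26, 3.17 and 3.35 on lung acrylamide arrays and 3.31, 3.64 and 3.35 on lung controls. In liver Acaca stood at 4.39, 4.01 and 4.77 with acrylamide and 4.57, 5.32 and 4.19 in controls, above every lung array. Untreated lung was 2.39-fold lower (limma adjusted p = 0.00204). Acacb, the carboxylase at the mitochondrial surface that restrains fatty acid oxidation, had the widest gap of the 3, -3.99 ± 0.32 log2 units.

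Elongases split between the tissues: 1 of 5 was higher in untreated lung and 4 lower. Elovl1, which lengthens saturated very long chains, stood at 6.79, 6.55 and 6.49 on lung acrylamide arrays and 6.46, 6.62 and 6.76 on lung controls. In liver Elovl1 stood at 5.18, 5.10 and 5.25 with acrylamide and 5.51, 5.36 and 5.40 in controls. All 6 lung arrays lay above all 6 liver arrays, 2.29-fold in the untreated groups (limma adjusted p = 8.69e-06). Elovl2, which lengthens polyunsaturated chains on the way to docosahexaenoic acid, gave the widest gap of the 42 genes. Its level was -3.45, -3.45 and -4.25 on lung acrylamide arrays and -4.28, -3.80 and -3.14 on lung controls. In liver it was 6.35, 6.13 and 6.20 with acrylamide and 6.45, 7.33 and 6.62 in controls. Untreated lung was 1485-fold lower for Elovl2 (limma adjusted p = 1.43e-09). Elovl3, an elongase of saturated and monounsaturated chains best known from brown fat and skin, stood at -7.97, -7.43 and -7.53 on lung acrylamide arrays and -7.08, -8.08 and -8.30 on lung controls. In liver Elovl3 stood at -0.55, -1.43 and -0.81 with acrylamide and -1.49, -2.24 and -1.17 in controls. The tissues did not overlap, and untreated lung was 72.9-fold lower (limma adjusted p = 1.56e-07). The lung values of Elovl3 exceeded the background limit of their arrays but lay near it, so the size of this fold is uncertain. Elovl5, which acts on polyunsaturated chains, differed by -2.15 ± 0.15, and Elovl6, which takes palmitate to stearate, by -3.19 ± 0.51 log2 units.

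The stearoyl-CoA desaturases, which put the first double bond into saturated chains, went opposite ways. Scd2 stood at 4.83, 4.66 and 4.91 on lung acrylamide arrays and 5.05, 5.15 and 5.12 on lung controls. In liver Scd2 stood at -1.06, -1.07 and -1.51 with acrylamide and -1.06, -0.62 and -0.62 in controls. Lung lay above liver on every array, by 58.7-fold in the untreated groups (limma adjusted p = 7.58e-10), the largest excess in lung of the 42 genes. Scd1, the main form in adult liver, stood at 4.79, 4.69 and 5.11 on lung acrylamide arrays and 5.08, 5.23 and 4.77 on lung controls. In liver Scd1 stood at 6.81, 6.14 and 6.84 with acrylamide and 6.81, 7.82 and 6.13 in controls. Untreated lung was 3.72-fold lower for Scd1 (limma adjusted p = 0.00101). Scd1 and Scd2 are close paralogs, and probe sequences were not used here, so cross-hybridisation was not tested. Fads1 and Fads2, the desaturases of polyunsaturated fatty acid synthesis, were both lower in lung, by -3.11 ± 0.15 and -4.49 ± 0.10 log2 units.

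**Figure D2:**
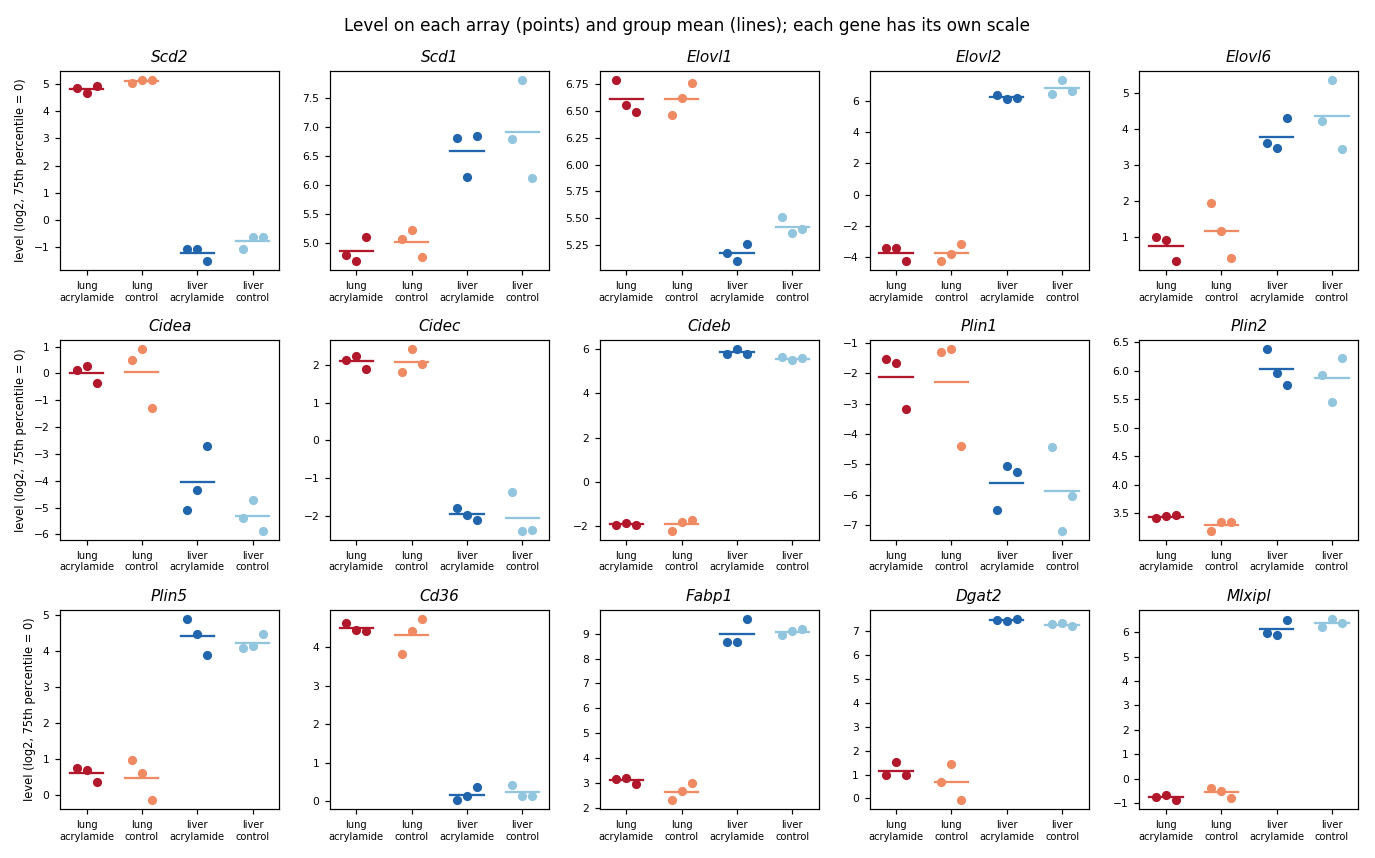
Levels (log2, vertical axes, each gene on its own scale) on each array for 15 of the genes, with lung acrylamide, lung control, liver acrylamide and liver control from left to right. Points are arrays and lines group means (n = 3). Scd2, Elovl1, Cidea, Cidec, Plin1 and Cd36 are higher in lung, and Scd1, Elovl2, Elovl6, Cideb, Plin2, Plin5, Fabp1, Dgat2 and Mlxipl are higher in liver.

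All 3 regulators were lower in lung. Mlxipl, the gene of ChREBP, stood at -0.74, -0.69 and -0.90 on lung acrylamide arrays and -0.39, -0.49 and -0.81 on lung controls. In liver Mlxipl stood at 5.98, 5.91 and 6.52 with acrylamide and 6.20, 6.56 and 6.38 in controls. Untreated lung was 123-fold lower at this spot (limma adjusted p = 5.48e-10), while other spots of Mlxipl differed by -1.41 and -0.35 log2 units. Srebf1, the gene of SREBP1, stood at 3.60, 3.69 and 3.60 on lung acrylamide arrays and 3.85, 4.01 and 3.85 on lung controls. In liver Srebf1 stood at 5.61, 5.94 and 6.24 with acrylamide and 5.98, 6.26 and 5.85 in controls. Lung lay below liver on every array, 4.36-fold in the untreated groups (limma adjusted p = 1.08e-06). Thrsp, a thyroid hormone responsive gene of lipogenic tissue, stood at 0.27, 0.27 and 0.35 on lung acrylamide arrays and at 0.90, 2.37 and -0.65 on lung controls. In liver Thrsp stood at 5.34, 5.45 and 6.12 with acrylamide and 5.37, 6.33 and 4.34 in controls. Untreated lung was 22.3-fold lower for Thrsp (limma adjusted p = 0.000174), with a difference of -4.48 log2 units that was -5.23 without lung control 5 and -3.71 without lung control 6.

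The promoters of Fasn and Mlxipl are shown because these genes stand for the enzyme and its sugar sensor, both higher in liver. They are RefSeq sequences of build GRCm38.p6, read 5′ to 3′ on the gene's strand, the 250 bases before the start site. Fasn lies at chr11:120824548-120824797 (minus strand), and the 2 listed starts of Mlxipl lie at chr5:135089640-135089889 and chr5:135106641-135106890 (plus strand).
Fasn: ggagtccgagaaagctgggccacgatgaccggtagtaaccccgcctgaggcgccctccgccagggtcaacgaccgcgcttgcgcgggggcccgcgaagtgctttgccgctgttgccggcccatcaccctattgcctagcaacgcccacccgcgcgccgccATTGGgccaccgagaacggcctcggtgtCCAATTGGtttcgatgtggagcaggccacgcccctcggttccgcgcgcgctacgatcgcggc
Mlxipl, first start: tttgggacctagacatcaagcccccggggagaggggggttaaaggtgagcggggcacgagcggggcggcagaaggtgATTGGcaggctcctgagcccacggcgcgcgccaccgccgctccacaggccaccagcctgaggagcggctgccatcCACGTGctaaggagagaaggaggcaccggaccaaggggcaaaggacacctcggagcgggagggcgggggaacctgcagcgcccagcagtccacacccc
Mlxipl, second start: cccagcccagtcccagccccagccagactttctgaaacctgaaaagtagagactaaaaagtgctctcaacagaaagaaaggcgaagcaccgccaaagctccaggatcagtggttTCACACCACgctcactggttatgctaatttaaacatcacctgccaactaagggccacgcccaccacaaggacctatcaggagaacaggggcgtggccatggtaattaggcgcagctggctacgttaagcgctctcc
Capitals mark matches, on either strand, to the CCAAT box (CCAAT), the E-box (CACGTG) and a sterol regulatory element (TCACNCCAC). Fasn has 3 CCAAT matches, of which the last 2 overlap on opposite strands. The first start of Mlxipl has a CCAAT box and an E-box, and the second start a sterol regulatory element. Of 42 genes 34 had a promoter in the RefSeq table, and windows of 250 bases before to 50 after the start were searched. The 34 genes have 46 promoters, since some have several starts. CCAAT was in 22 of the 46 (47.8%), belonging to 21 genes, and in 37.4% of 32851 promoters of all genes. CACGTG was in 7 of the 46 (15.2%, those of Elovl5, Lipe, Lpin2, Mlxipl, Plin2, Pnpla5 and Slc25a1) and in 7.15% of all, and TCACNCCAC was in 1 of the 46, that of Mlxipl, and in 1.24% of all. No promoter was listed there for Dgat1, Scd1, Dgat2, Fads1, Cidea, Elovl3, Lpl and Scd2.

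Of the 7 genes of glycerolipid assembly 5 were lower in lung and none was higher. Dgat2, which completes triglyceride synthesis, stood at 0.97, 1.53 and 1.0 on lung acrylamide arrays and 0.70, 1.44 and -0.08 on lung controls. In liver Dgat2 stood at 7.48, 7.42 and 7.51 with acrylamide and 7.27, 7.34 and 7.19 in controls. The tissues were far apart on every array, 95.8-fold lower in untreated lung (limma adjusted p = 2.56e-08). Dgat1, which catalyses the same last step, differed less, by -0.96 ± 0.16 log2 units. Agpat2, which makes phosphatidic acid, differed by -3.77 ± 0.15, Lpin1, a phosphatidate phosphatase, by -2.07 ± 0.46, and Gpam, the mitochondrial acyltransferase of the first step, by -1.54 ± 0.20. Lpin2, a further phosphatidate phosphatase, was not called (-0.58 ± 0.26, limma adjusted p = 0.0615), nor was Mogat1, a monoacylglycerol acyltransferase (0.05 ± 0.21, limma adjusted p = 0.851). Lpin2 was called at -0.80 with the mean of its spots, at -0.72 without liver control 1, at -0.78 without liver control 4, with an intensity trend and with the filter on every array. With quantile scaling its difference was 0.0069. Mogat1 was called lower in lung with the mean of its spots (-0.96, limma adjusted p = 0.0119).

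The droplet proteins split by paralog, with 3 of 9 higher in untreated lung and 4 lower. Cidea and Cidec, which drive droplet fusion in fat, were higher in lung, and Cideb, their relative in hepatocytes that loads lipid onto very low density lipoprotein, was lower. Cidea stood at 0.14, 0.27 and -0.36 on lung acrylamide arrays and 0.51, 0.90 and -1.28 on lung controls. In liver Cidea stood at -5.09, -4.36 and -2.69 with acrylamide and -5.38, -4.72 and -5.87 in controls. Untreated lung was 41.3-fold higher for Cidea (limma adjusted p = 3.89e-05). That difference of 5.37 log2 units was 6.03 without lung control 6. On acrylamide arrays the difference of Cidea was 4.06, and 4.74 without liver acrylamide 30. It was 2.71 without liver acrylamide 27 and 29. Cidec stood at 2.14, 2.25 and 1.90 on lung acrylamide arrays and 1.80, 2.42 and 2.02 on lung controls. In liver Cidec stood at -1.79, -1.98 and -2.11 with acrylamide and -1.38, -2.40 and -2.38 in controls. The tissues did not overlap for Cidec, and untreated lung was 17.5-fold higher (limma adjusted p = 2.73e-07). Cideb stood at -1.96, -1.85 and -1.97 on lung acrylamide arrays and -2.22, -1.81 and -1.72 on lung controls. In liver Cideb stood at 5.81, 6.0 and 5.80 with acrylamide and 5.64, 5.49 and 5.58 in controls. Untreated lung was 179.8-fold lower for Cideb (limma adjusted p = 1.02e-10).

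Among the perilipins, Plin1, the coat of the fat cell droplet, was higher in lung. Plin1 stood at -1.53, -1.66 and -3.18 on lung acrylamide arrays and -1.30, -1.20 and -4.38 on lung controls. In liver Plin1 stood at -6.51, -5.05 and -5.25 with acrylamide and -4.43, -7.20 and -6.06 in controls. Lung control 6 lay only just above the highest liver array, and the untreated difference was 12.1-fold (limma adjusted p = 0.0060). That difference of 3.60 log2 units was 4.64 without lung control 6, 4.33 without liver control 1 and 2.95 without liver control 3. Plin2, the coat found in most tissues, was lower in lung by -2.57 ± 0.21 log2 units, and Plin5, the coat of tissues that oxidise fat, by -3.76 ± 0.32. Hsd17b13, a droplet protein of hepatocytes, was lower by -4.29 ± 0.13. Plin3, a coat that also occurs free in the cytosol, was not called at -0.16 ± 0.13. Its sign turned with median scaling (0.05) and with quantile scaling, where it was called higher in lung (0.35, limma adjusted p = 0.0268). Plin4, an adipocyte coat, was not called at 0.85 ± 0.60, but was called at 1.5 without lung control 6 (limma adjusted p = 0.0259).

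Markers of fat cells were read beside the droplet genes. Of 6 white adipocyte markers, 4 were higher and 2 lower in untreated lung, and of 3 brown adipocyte markers 1 was higher and none lower. The summed level of the white adipocyte markers, on the linear scale with the 75th percentile at 1, spanned 9.28 to 28.3 on lung acrylamide arrays. It spanned 3.81 to 32.7 on lung controls. In liver that sum spanned 2.09 to 2.59 with acrylamide and 1.62 to 4.36 in controls. Adipoq, the adiponectin gene, stood at 0.01, 0.54 and -1.27 on lung acrylamide arrays and 0.12, 1.04 and -2.57 on lung controls. Cfd, the adipsin gene, stood at 4.32, 4.65 and 2.96 on lung acrylamide arrays and 4.74, 4.79 and 1.56 on lung controls. Acrylamide 30 and control 6 were the lowest lung arrays for Adipoq, Cfd, Cidea, Plin1 and Plin4. Cidec and Lipe did not follow that order, with their lowest lung values on control 4 (1.80) and control 5 (-1.48). Of the 6 white adipocyte markers, control 6 was the lowest lung array for 5 and the highest for 1. In liver Adipoq was highest on control 1, at -2.59, the array with the highest liver level of Plin1 and Cidec. The part of fat cell RNA in these differences was not tested. The heart muscle gene Nppa also differed along the lung arrays, at -1.88, 1.94 and -3.74 with acrylamide and 3.07, 0.84 and -4.56 in controls.

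**Figure D3:**
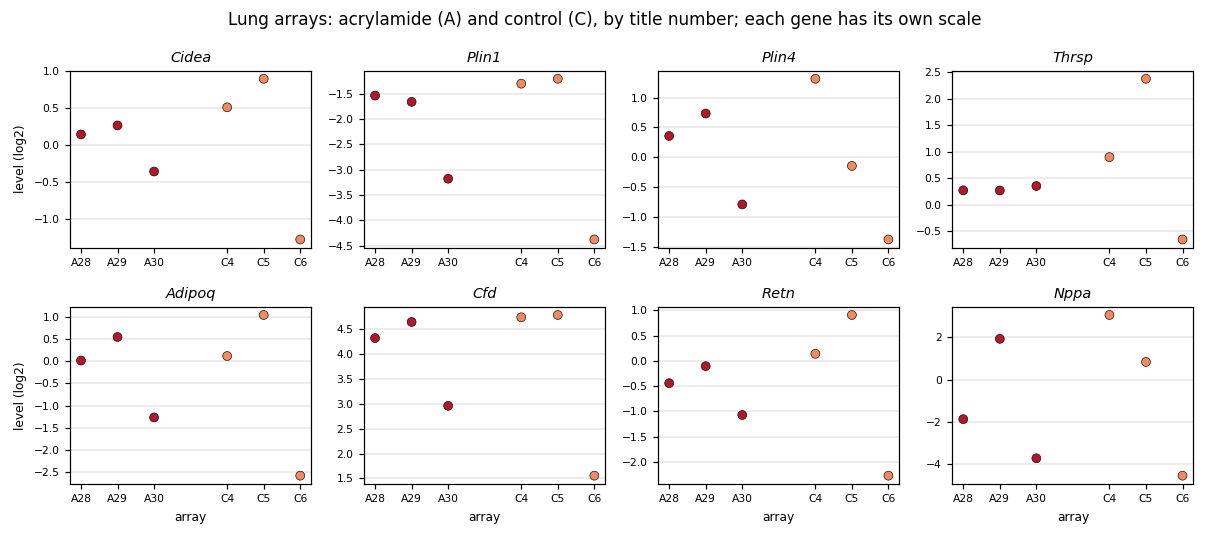
Levels (log2, vertical axes, each gene on its own scale) on the 6 lung arrays for Cidea, Plin1, Plin4 and Thrsp, and for the markers Adipoq, Cfd and Retn of fat cells and Nppa of heart muscle. A marks acrylamide and C control arrays with their title numbers. Acrylamide 30 and control 6 are lowest for Cidea, Plin1, Plin4, Adipoq, Cfd and Retn, and for Thrsp the 3 acrylamide arrays lie at 0.27 to 0.35 inside a control span of -0.65 to 2.37.

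Of 5 lipases, Lipe was called higher in untreated lung and Pnpla3 lower. Pnpla3, adiponutrin, an acylhydrolase whose gene follows SREBP1 in mouse liver, was 12.7-fold lower (limma adjusted p = 0.00662). Its difference of -3.66 log2 units was -2.32 without liver control 3 and -4.79 without liver control 4. Lipe, hormone-sensitive lipase, differed by 0.65 ± 0.25 (limma adjusted p = 0.0391), a call lost without liver control 3 (0.44, limma adjusted p = 0.145). Lipe was also no longer called without lung control 4 or lung control 6, with the position number or the title number as a block, and with array weights. On acrylamide arrays its difference was 1.41. Lpl, lipoprotein lipase, was not called in controls (0.66 ± 0.28, limma adjusted p = 0.0527) and was called on acrylamide arrays (1.46, limma adjusted p = 0.000801, and 1.96 without liver acrylamide 27 and 29). In controls Lpl was called under 10 alternatives, among them quantile scaling (1.01, limma adjusted p = 0.00495) and the mean of its spots (1.28, limma adjusted p = 0.000288). Pnpla2, the lipase that opens triglyceride breakdown, differed by 0.01 ± 0.20 and was not called. Pnpla5, a related acylhydrolase, differed by -1.95 ± 0.99 and was not called. It was called without liver control 4 (-2.98, limma adjusted p = 0.0138) and with the mean of its spots (-2.02, limma adjusted p = 0.0310).

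The genes of uptake and binding went opposite ways. Cd36, a membrane fatty acid transporter abundant in lung endothelium and macrophages, stood at 4.62, 4.43 and 4.40 on lung acrylamide arrays and 3.83, 4.41 and 4.73 on lung controls. In liver Cd36 stood at 0.03, 0.14 and 0.37 with acrylamide and 0.42, 0.14 and 0.15 in controls. Lung was higher on every array, 17-fold in the untreated groups (limma adjusted p = 4.54e-08). Fabp1, the liver fatty acid binding protein, stood at 3.14, 3.20 and 2.95 on lung acrylamide arrays and 2.29, 2.67 and 2.97 on lung controls. In liver Fabp1 stood at 8.67, 8.67 and 9.60 with acrylamide and 8.96, 9.10 and 9.19 in controls. Untreated lung was 86.8-fold lower (limma adjusted p = 6.65e-09). Alb, the albumin gene, stood at 4.22, 4.11 and 3.05 on lung acrylamide arrays and 3.11, 3.1 and 4.21 on lung controls, and the part of liver RNA in the lung values of Fabp1 was not tested.

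Spots of 1 gene did not always give the same tissue difference. For Plin1 the untreated difference was 3.60 and -1.43 log2 units at its brighter spots, and a further, dimmer spot was above background on only 2 of 6 liver arrays. For Cideb it was -7.49 and -3.35, the same sign at different sizes. For Hsd17b13 it was -4.29 at the brightest spot, and its other spot, also lower in lung, was above background on only 4 of 6 lung arrays. For Me1 it was -0.88 and -2.43. For Mogat1 it was 0.05 at the brightest spot and -1.39 at the spot above background on 11 of 12 arrays. The size for these genes, and the sign for Plin1 and Mogat1, therefore hold for the spot named.

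Neighbouring genes of the pathway were read from 5 further lists. Of 11 genes of sugar entry and NADPH, 9 were lower in untreated lung and 2 higher. The higher ones were G6pdx and Pgd of the NADPH-making pentose phosphate route, which differed by 1.56 and 0.59 log2 units. Of 18 regulators, 12 were lower and 3 higher, with Insig1 and Insig2, which hold SREBP in the endoplasmic reticulum, at -4.05 and -3.15. Mlxip, the relative of ChREBP known as MondoA, was at 2.28 and Pparg, the master regulator of fat cells, at 1.18. Of 18 genes of fatty acid synthesis and activation, 13 were lower and 4 higher, among them Acsl1, an acyl-CoA synthetase, at -4.63 and Elovl7, a further elongase, at 3.64. Of 18 glycerolipid and droplet genes, 12 were lower and 4 higher, with Lipa, the lysosomal acid lipase, at -3.21 and Hilpda, a droplet protein induced by low oxygen, at 4.55. Of 13 genes of uptake and lipoprotein lipase control, 8 were lower and 3 higher. Slc27a5, a liver fatty acid transporter, was at -10.21, and Gpihbp1, which anchors lipoprotein lipase to capillaries, at 1.94. The medians of these lists lay between -2.62 and -0.88, against -0.34 over all genes.

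The next question was what acrylamide did within each tissue. In lung, limma called 0 of the 42 genes (0% of all 22226 genes were called), and 2 of the 42 had an unadjusted p under 0.05, against 4.95% of all genes. Of the 42, 18 had a mean above and 24 below that of controls (48.4% of all genes lay above), with a median difference of -0.01 log2 units, the same as over all genes. The acrylamide and control arrays did not overlap for 5 of the 42 (11.9%, 1 higher and 4 lower), against 10.9% of all genes (4.11% higher and 6.80% lower). These were Scd2, Srebf1, Plin3 and Gpam with acrylamide below control, and Plin2 above.

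Scd2 stood at 4.83, 4.66 and 4.91 on lung acrylamide arrays, against 5.05, 5.15 and 5.12 on lung controls, a difference of -0.31 log2 units (95% interval -0.56 to -0.05, limma adjusted p = 0.982). Srebf1 stood at 3.60, 3.69 and 3.60 with acrylamide, against 3.85, 4.01 and 3.85 in controls, a difference of -0.28 (95% interval -0.51 to -0.04, limma adjusted p = 0.982). These are the 2 genes with an unadjusted p under 0.05, and neither was called. In lung, position 1 held acrylamide 28 and 30 with control 5, and position 2 acrylamide 29 with controls 4 and 6. Within position 1 and position 2 the difference was -0.27 and -0.43 for Scd2, and -0.42 and -0.16 for Srebf1. Gpam stood at 4.06, 4.05 and 4.04 on lung acrylamide arrays, against 4.21, 4.21 and 4.11 on lung controls, a difference of -0.13 ± 0.09. Plin3 stood at 3.35, 3.28 and 3.13 with acrylamide, against 3.38, 3.42 and 3.43 in controls, a difference of -0.15 ± 0.10. Plin2 stood at 3.41, 3.44 and 3.47 with acrylamide, against 3.19, 3.35 and 3.34 in controls, a difference of 0.15 ± 0.09. Each of these gaps was a fraction of a log2 unit, and none was called.

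Other lung differences were wider but the arrays overlapped. Dgat2 stood at 0.97, 1.53 and 1.0 on lung acrylamide arrays, against 0.70, 1.44 and -0.08 on lung controls, a difference of 0.48 ± 0.40. It was -0.46 within position 1 and 1.22 within position 2, 0.095 without lung control 6 and 0.86 without lung control 5. Fabp1 stood at 3.14, 3.20 and 2.95 with acrylamide, against 2.29, 2.67 and 2.97 in controls, a difference of 0.45 ± 0.19. Of the 8 hepatocyte markers, 7 also had a lung mean above that of controls, with a median of 0.23 and none called. Lipe stood at -0.45, -0.76 and -0.78 with acrylamide, against -0.52, -1.48 and -0.85 in controls, a difference of 0.29 ± 0.26 that was 0.022 without lung control 5 and 0.50 without lung control 4. Thrsp differed by -0.57 ± 0.72 over controls that ranged from -0.65 to 2.37, and by 0.18 without lung control 5. The enzymes that set the rate stayed close to 0: Fasn at -0.10 ± 0.20, Acaca at -0.18 ± 0.13 and Scd1 at -0.16 ± 0.17, none called. Mlxipl was at -0.21 ± 0.14, and the mean of its spots at 0.17.

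**Figure D4:**
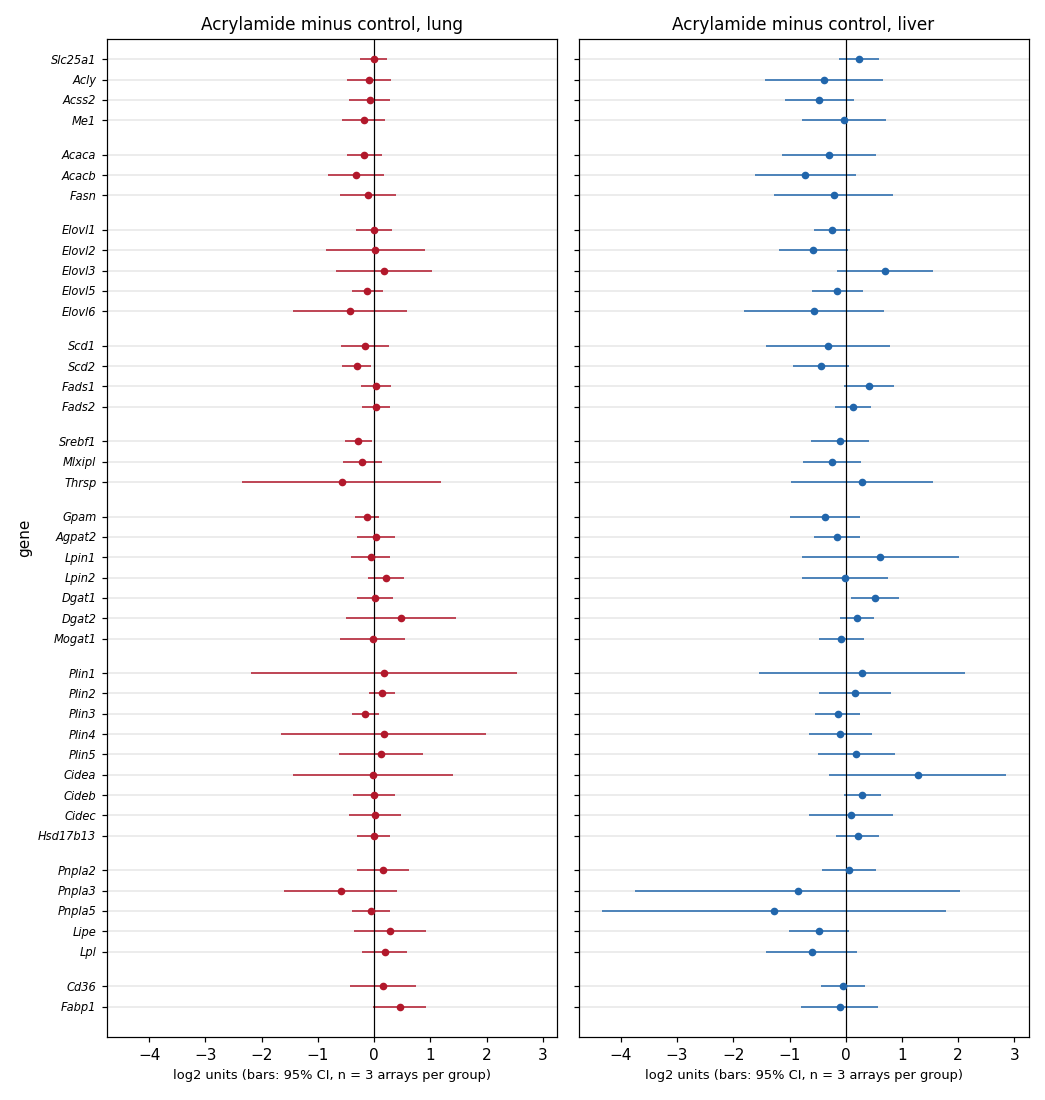
Acrylamide minus control in log2 units (horizontal axes) for each of the 42 genes in lung (left) and liver (right), with 95% confidence intervals from limma and 3 arrays in each group. Most intervals include 0, those of Pnpla3 and Pnpla5 in liver and Plin1 in lung are the widest, and no gene was called in either tissue.

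In liver, limma also called 0 of the 42 genes (0% of all 21076 genes were called), and 1 of the 42 had an unadjusted p under 0.05, against 6.12% of all genes. Of the 42, 16 had a mean above and 26 below that of controls (46.8% of all genes lay above), with a median of -0.10 log2 units, against -0.02 over all genes. Without liver acrylamide 27 and 29 the tally turned to 27 above and 15 below, with a median of 0.12, against -0.02 over all genes, and again 0 of the 42 were called. The arrays did not overlap for 7 of the 42 (16.7%, 5 higher and 2 lower), against 12.2% of all genes (5.43% higher and 6.78% lower). Those with acrylamide above control were Dgat1, Fads1, Cideb, Dgat2 and Fads2, and those below were Elovl2 and Elovl1. By role, all 3 chain synthesis genes, 4 of 5 elongases and 4 of 5 lipases had a mean below that of controls, and 7 of 9 droplet genes a mean above. Without those arrays 1 of 3 chain synthesis genes, 3 of 5 elongases and 4 of 5 lipases lay below control, and 6 of 9 droplet genes above.

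Dgat1 stood at -0.10, 0.10 and 0.29 on liver acrylamide arrays, against -0.35, -0.65 and -0.27 on liver controls, a difference of 0.52 log2 units (95% interval 0.09 to 0.95, limma adjusted p = 0.782). Within position 1 it was 0.59 and within position 2 0.37, and it was 0.40 to 0.62 when 1 array was left out. It is the gene with an unadjusted p under 0.05, and was not called. Fads1 stood at 3.67, 3.49 and 3.19 with acrylamide, against 3.14, 2.83 and 3.12 in controls, a difference of 0.42 ± 0.18, with 0.55 and -0.17 at its other spots. Cideb stood at 5.81, 6.0 and 5.80 with acrylamide, against 5.64, 5.49 and 5.58 in controls, a difference of 0.30 ± 0.13, with -0.49 at its other spot. Dgat2 stood at 7.48, 7.42 and 7.51 with acrylamide, against 7.27, 7.34 and 7.19 in controls, a difference of 0.20 ± 0.13. For these 3 genes the groups lay side by side without overlap, and none was called. Elovl2 stood at 6.35, 6.13 and 6.20 with acrylamide, against 6.45, 7.33 and 6.62 in controls, a difference of -0.57 ± 0.25 (limma adjusted p = 0.782) that was -0.31 without liver control 3. Elovl1 stood at 5.18, 5.10 and 5.25 with acrylamide, against 5.51, 5.36 and 5.40 in controls, a difference of -0.25 ± 0.13. Without liver acrylamide 27 and 29 the differences were 0.71 for Dgat1, 0.16 for Fads1, 0.23 for Cideb, 0.24 for Dgat2, -0.60 for Elovl2 and -0.17 for Elovl1, and none was called.

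Lpl carried 5 spots, and they differed in liver. Its brightest spot stood at 2.05, 1.85 and 1.2 on liver acrylamide arrays, against 2.28, 2.81 and 1.83 on liver controls, and the groups overlapped. The third brightest spot stood at -4.77, -4.50 and -4.92 with acrylamide, against -2.86, -1.82 and -2.44 in controls. The fourth stood at -6.46, -5.20 and -4.76 with acrylamide, against -3.34, -2.36 and -2.92 in controls. These 2 dim spots, picked after their values were seen, did not overlap between the groups, with differences of -2.36 and -2.60. The brightest spot differed by -0.61 ± 0.33, the second brightest by -0.51 and the dimmest by -0.20. The picked spots were below the background limit on liver acrylamide 30 and above it on the other 5 liver arrays. They were not part of the test, which takes 1 spot per gene, and in lung their differences were 0.08 and 0.06.

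The genes that drive lipogenesis did not separate the liver groups. Srebf1 differed by -0.10 ± 0.21, Mlxipl by -0.24 ± 0.21 and Thrsp by 0.29 ± 0.52. Fasn differed by -0.22 ± 0.43 (95% interval -1.27 to 0.84, limma adjusted p = 0.924), Acaca by -0.30 ± 0.34 and Scd1 by -0.32 ± 0.45. Without liver control 3 the difference was 0.23 for Fasn, 0.01 for Acaca, 0.13 for Scd1 and 0.02 for Srebf1, and without liver control 4 it was -0.22 for Thrsp. Without liver acrylamide 27 and 29 it was 0.16 for Fasn, 0.083 for Acaca, -0.074 for Scd1, 0.21 for Srebf1, 0.14 for Mlxipl and 0.77 for Thrsp, none called. Pnpla3 stood at -1.27, -1.31 and -0.60 with acrylamide, against -0.63, 2.48 and -2.47 in controls, a difference of -0.86 ± 1.19 that was 0.49 without liver control 3. Pnpla5 stood at -1.92, -3.18 and -0.33 with acrylamide, against -0.92, 1.91 and -2.58 in controls, a difference of -1.28 ± 1.26 that spanned -2.31 to -0.06 when 1 array was left out. For both genes all 3 acrylamide arrays lay below liver control 3, and the groups overlapped. Without liver acrylamide 27 and 29 the difference was -0.40 for Pnpla3 and 0.20 for Pnpla5.

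The liver controls differed among themselves. Liver control 3 was the highest of the 6 liver arrays for 19 of the 42 genes (45.2%), against 22.7% of all genes. These 19 include the 3 chain synthesis genes, the 3 regulators, 3 of 4 supply genes (Acly, Acss2 and Me1) and 3 of 5 elongases (Elovl2, Elovl5 and Elovl6). The others are Scd1, Gpam, Agpat2, Lpin2, Pnpla3, Pnpla5 and Lpl. Liver control 3 was the lowest array for 10 of the 42 (23.8%, against 18.7% of all genes), of which 6 are droplet genes (Plin1, Plin2, Plin4, Cideb, Cidec and Hsd17b13). Liver control 4 was also the lowest for 10 (23.8%), against 8.43% of all genes, among them Fasn, Scd1, Elovl6, Thrsp, Me1 and Pnpla3.

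The span over the 3 liver controls was 4.95 log2 units for Pnpla3, a 31.0-fold range that is wider than that of 99.8% of genes. It was 4.50 for Pnpla5, 2.77 for Plin1, 2.16 for Lpin1, 1.99 for Thrsp, 1.92 for Elovl6, 1.69 for Scd1 and 1.65 for Fasn. The narrowest span of the set was 0.07, for Fads2. The median span over the 42 genes was 0.76 log2 units in liver controls and 0.41 over all genes. On liver acrylamide arrays the median span was 0.45 for the 42 genes and 0.49 for all genes, so the median of the set exceeded that of all genes only in the controls. The controls had the wider span for 25 of the 42 genes, against 43.4% of all genes, and the acrylamide arrays had it for the rest of the set. Second spots placed the controls in the same order: 1, 3 and 4 stood at -2.50, -0.97 and -3.69 for Pnpla3, at -2.43, -0.96 and -3.22 for Pnpla5 and at 4.31, 5.06 and 3.16 for Thrsp. Over all further spots of the set, control 3 was highest for 14 of 40, and over the neighbouring pathway genes for 27 of 77. All 8 macrophage markers were lowest on liver control 3, and the part of cell makeup in its levels was not tested. All 3 acrylamide arrays lay within the range of the liver controls for 10 of the 42 genes (23.8%), against 14.5% of all genes.

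**Figure D5:**
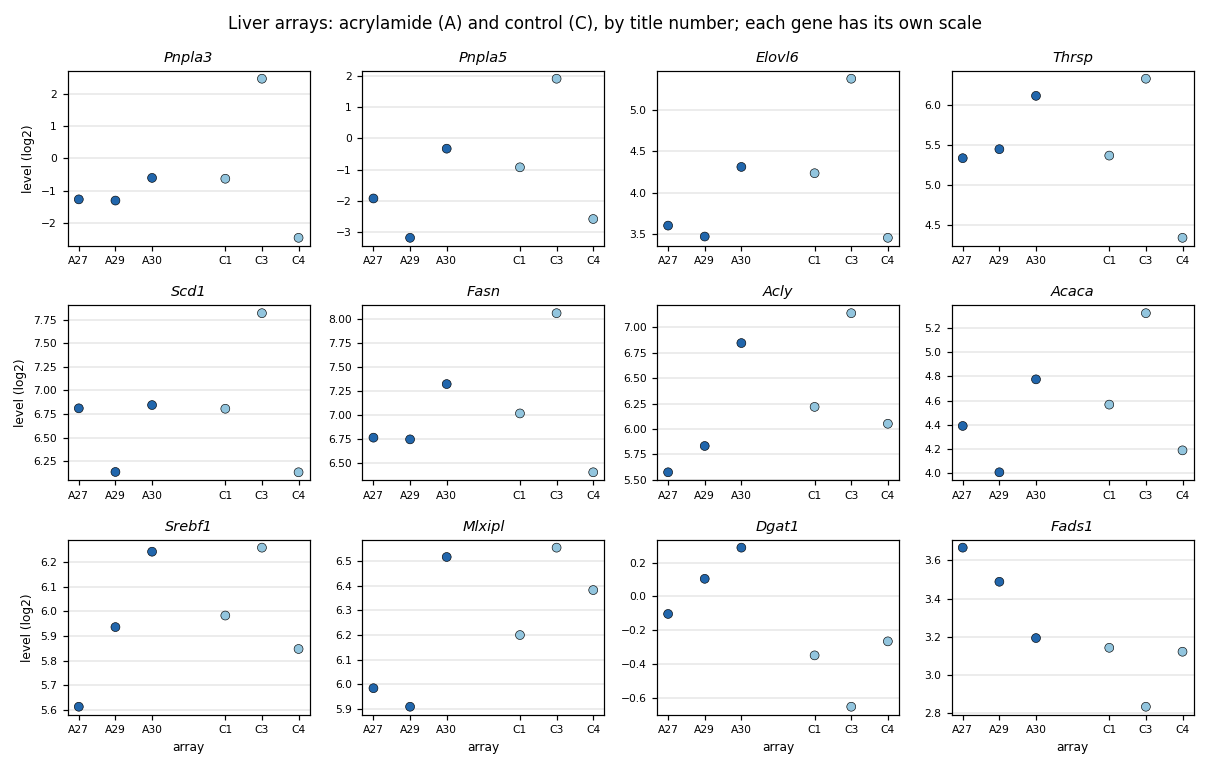
Levels (log2, vertical axes, each gene on its own scale) on the 6 liver arrays for 12 of the genes. A marks acrylamide and C control arrays with their title numbers. Control 3 is the highest array for every panel but Dgat1 and Fads1, where it is the lowest, and for Pnpla3 the controls span -2.47 to 2.48.

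The promoters of Pnpla3, Pnpla5 and Thrsp are shown because these genes had wide spans over the liver controls, and they were picked after their values were seen. As above, each is the 250 bases before the start site in RefSeq GRCm38.p6, with matches to the same motifs in capitals. Pnpla3 lies at chr15:84167566-84167815 (plus strand), Pnpla5 at chr15:84123176-84123425 (minus strand) and Thrsp at chr7:97417551-97417800 (minus strand).
Pnpla3: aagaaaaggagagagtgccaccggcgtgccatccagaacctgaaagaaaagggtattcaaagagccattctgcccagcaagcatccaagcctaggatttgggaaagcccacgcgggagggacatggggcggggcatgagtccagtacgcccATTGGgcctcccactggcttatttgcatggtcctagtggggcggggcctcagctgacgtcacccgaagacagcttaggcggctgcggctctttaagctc
Pnpla5: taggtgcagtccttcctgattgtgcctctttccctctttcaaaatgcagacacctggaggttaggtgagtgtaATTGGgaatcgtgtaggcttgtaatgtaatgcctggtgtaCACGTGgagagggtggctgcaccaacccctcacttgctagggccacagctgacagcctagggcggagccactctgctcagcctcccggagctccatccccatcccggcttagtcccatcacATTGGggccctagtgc
Thrsp: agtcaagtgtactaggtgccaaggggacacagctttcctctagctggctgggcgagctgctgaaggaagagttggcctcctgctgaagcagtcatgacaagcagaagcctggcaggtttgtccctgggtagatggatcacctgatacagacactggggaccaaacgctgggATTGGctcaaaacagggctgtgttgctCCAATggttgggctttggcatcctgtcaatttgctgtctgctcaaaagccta
Pnpla3 has 1 CCAAT match, Thrsp has 2, and Pnpla5 has 2 and an E-box. None of the 3 holds TCACNCCAC in this window.

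Lung controls also spread more than lung acrylamide arrays, for 34 of the 42 genes, against 68.5% of all genes. The median span was 0.27 log2 units on lung acrylamide arrays and 0.46 on lung controls for the 42 genes, against 0.25 and 0.40 for all genes. Lung control 5 was the highest lung array for 18 of the 42 (42.9%), against 16.1% of all genes, and these 18 include all 4 supply genes and 2 of 3 chain synthesis genes. Over further spots of the set lung acrylamide 30 was highest most often, for 13 of 42, and control 5 for 10. Over neighbouring pathway genes control 5 was highest for 18 of 78. All 3 lung acrylamide arrays lay within the control range for 18 of the 42, against 33.2% of all genes.

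The last comparison asked whether the response to acrylamide differed between lung and liver. limma called 0 of the 42 genes (0% of 23283 genes were called), and 1 of the 42 had an unadjusted p under 0.05, against 4.44% of all genes. The count over all genes moved with the arrays used: 1147 genes were called without liver acrylamide 27 and 29, 136 without liver acrylamide 30, 8 without liver acrylamide 27 and 139 with array weights, and 0 of the 42 in each of these fits. Of the 42, 25 had a lung response above the liver response and 17 below, against 49.9% of all genes above. That tally turned to 15 above and 27 below without liver acrylamide 27 and 29, to 17 and 25 without liver control 3, and to 20 and 22 without liver acrylamide 29 or without lung control 6.

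The gene with an unadjusted p under 0.05 was Dgat1, with a lung response minus liver response of -0.51 log2 units (95% interval -1.0 to -0.02, limma adjusted p = 0.994), and -0.70 without liver acrylamide 27 and 29. The 5 lipases all had a lung response above the liver response, with a median of 0.76, and 3 of 5 had it without those arrays. Among them were Lipe, at 0.76 ± 0.36 with and 0.76 without those arrays, and Lpl, at 0.80 ± 0.39 with and 1.3 without them, and none was called. Of the 9 droplet genes 8 had a lung response below the liver response, and 5 of 9 without those arrays, none called. Cidea had the widest of these, -1.30, which rests on its level of -2.69 on liver acrylamide 30 and was -0.63 without that array. Its liver difference was 1.28 with and 0.60 without acrylamide 30.

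In the 5 neighbouring lists, limma called no gene for acrylamide in lung or liver. Among genes with an unadjusted p under 0.05, liver had Irs2, an adaptor of the insulin receptor, at -0.98 log2 units, Pklr, liver pyruvate kinase, at 0.64, Elovl7 at -0.78 and Tecr, the last enzyme of the elongation cycle, at 0.41. Lung had Ppargc1b, a coactivator of SREBP1, at -0.34, Agpat1, a relative of Agpat2, at -0.33, and Bscl2, seipin of droplet formation, at 0.50. The widest liver difference among these lists, -4.71 ± 3.64 for Fabp5, an epidermal fatty acid binding protein, rests on liver acrylamide 29, where its spot was below the background limit. Fabp5 stood at 7.0, -7.34 and 4.93 on liver acrylamide arrays, against 6.40, 7.06 and 5.26 on liver controls.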

How the data were processed

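Total RNA of lung and liver, labelled with Cy3, was measured on 12 one-colour Agilent arrays. The deposited array files hold 1 linear intensity per spot, which per the submitters' processing notes came from Agilent Feature Extraction 10.7. No source used here says whether background had been subtracted. The authors' series matrix holds the same intensity values scaled so that the 75th percentile of an array is 1000, and was an alternative.

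After 1319 control spots were dropped, each array's log2 values were shifted to put their 75th percentile at 0. That percentile was 839.4 to 1376 in lung and 294.5 to 621.5 in liver. Gene symbols came from the Entrez number or accession through a RefSeq table of GRCm38.p6. Spots above the 95th percentile of 308 negative control spots on at least 3 arrays of a fit were tested, 1 spot per gene (highest mean). Tests were limma 3.58.1 (lmFit, eBayes) in R 4.3.3, within a tissue for acrylamide and over 12 arrays for tissue differences and the interaction, and were checked on simulated data. The threshold was a Benjamini-Hochberg adjusted p of 0.05. Array values are given for the widest differences of each comparison and for Srebf1, Mlxipl, Thrsp, Fasn, Acaca and Scd1. Other genes and spots were named after their values were seen. Some genes of the neighbouring lists are not reported here. The members and lists were chosen with earlier results of these data known. The number of arrays limits the precision.

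Title numbers 29, 30 and 4 occur in both tissues. Their deviations correlated at -0.02, -0.16 and 0.01, against -0.07 to 0.13 for lung and liver arrays of the same treatment with unlike numbers. With so few arrays these values cannot show whether the numbers pair the arrays. Alternatives were quantile and median scaling, normexp, the series matrix, filters, the mean of a gene's spots, an intensity trend, array weights, the position number (the middle number of the title's prefix) or title number as a block, 1 fit of 12 arrays, and leaving out arrays.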

Additional observations from a re-analysis of the deposited data

How the results depend on the processing

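Counts of the 42 genes called kept within 1.5 times of the reported count under every alternative run: 34 to 39 for untreated lung against liver, 34 to 37 on acrylamide arrays, and 0 for acrylamide in lung, in liver and for the interaction. With the title number as a replicate block, 34 genes were called on control arrays and 36 on acrylamide arrays, and Lipe was no longer called (0.63, limma adjusted p = 0.0504). Whether the number pairs the arrays is not known.

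Some differences changed sign, and 2 of those between untreated tissues were then called. With quantile scaling Plin3 was called higher in lung (limma adjusted p = 0.0268). With the mean of its spots Mogat1 was called lower (limma adjusted p = 0.0119). All sign changes between untreated tissues, apart from those with arrays left out, were these. Lpin2 (0.0069) and Plin3 (0.35) changed with quantile scaling, and Plin3 with median scaling (0.050). Mogat1 changed with normexp (-0.087) and with the mean of its spots (-0.96). With 1 array left out, Mogat1 spanned -0.18 to 0.25 and Pnpla2 -0.13 to 0.16. For acrylamide in liver, leave-one-out values spanned -1.99 to 0.49 for Pnpla3, -0.59 to 0.23 for Fasn, -0.22 to 0.78 for Thrsp, -0.72 to 0.13 for Scd1, -0.55 to 0.013 for Acaca and -0.25 to 0.059 for Srebf1. The mean of its spots gave -0.10 for Cideb in liver and 0.17 for Mlxipl in lung, and in lung Thrsp spanned -1.34 to 0.18 and Fasn -0.31 to 0.010. The cause was not tested.

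Without liver acrylamide 27 and 29, chosen after the data were seen and with the lone acrylamide array assumed to vary like the others, 47 genes were called in liver, 0 of them in the set. Then 27 of the 42 had a mean above control, with Pnpla5 at 0.20, Srebf1 at 0.21, Mlxipl at 0.14, Fasn at 0.16 and Acaca at 0.083. On acrylamide arrays Plin1 was not called without these arrays (3.13) or with the mean of its spots (0.85), Fasn with quantile scaling (-0.44), median scaling (-0.91), without liver acrylamide 30 (-0.90) or without lung acrylamide 29 (-1.0), and Acaca with quantile scaling (-0.59). Signal over background limits Plin1 in liver, whose value on acrylamide 30 did not exceed the negative control spots.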
